A study of Saccharomyces cerevisiae with 4 samples.

Results

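The deletions of UME6 and of SNF2 were set directly against each other in budding yeast (Saccharomyces cerevisiae), with 1 RNA sequencing library for each strain. The members of the comparison were the genes whose RPKM (reads per kilobase of gene and per unit of sequencing depth) averaged 10 or more over the 4 libraries of the study. That mean was reached by 5859 of 6659 genes. SNF2, UME6, the a-cell and alpha-cell genes and the genes of the mating-type and silent mating loci were left out, 20 genes by name of which 19 reached the mean, and 5840 genes were kept. A second table gave splicing efficiency for 298 introns or isoforms, of which 289 had a number in both strains and a host gene that was kept.

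All 4 strains were haploid, of the BY4741/2 background with the his-, ura- and leu- markers, and were grown to mid-log phase in rich medium with glucose. The strain snf2∆ carried snf2-delta:NatMX, the strain ume6∆ carried ume6-delta:KanMX, ume6∆snf2∆ carried both, and WT neither. RNA was depleted of ribosomal RNA before sequencing. Each genotype was represented by a single strain and a single library, so no difference has a replicate check and no test across replicates was possible.

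Ume6 is a DNA-binding protein that sits at the URS1 element upstream of early meiotic genes, where it recruits the Sin3-Rpd3 histone deacetylase and the Isw2 remodeler and keeps these genes silent in growing cells. Snf2 is the motor of Swi/Snf, an ATP-driven complex that slides and evicts nucleosomes and is known for opening inducible promoters such as those of HO, INO1, SUC2 and the phosphate genes. INO1 carries a URS1 element and is a known target of both regulators.

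Levels are given as scaled RPKM, the deposited RPKM divided by a factor for each library, the median ratio of its genes to their geometric mean over the 4 libraries. Differences are log2(scaled RPKM + 1) in ume6∆ minus that in snf2∆, so a positive value means higher in ume6∆. The added 1 makes them understate the difference of low genes. The limit for calling a gene higher or lower was 2-fold on that scale. The RPKM had been scaled to 25.7 M reads for snf2∆ and 30.2 M for ume6∆, and the median kept gene had 1421.5 and 1492.5 reads. Of 604 called genes with recovered reads, the exact 95% Clopper-Pearson interval of the ratio excluded 1 for all 604 and lay beyond 2-fold for 488. PCR copies of a molecule are not independent, so these intervals hold counting error only and leave out variation between cultures.

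Each deleted gene was near 0 in the strains named for its loss. SNF2 was at 64.2 in WT, 0.108 in snf2∆, 43.1 in ume6∆ and 0.143 in ume6∆snf2∆. UME6 was at 32.7 in WT, 19.9 in snf2∆, 0.0154 in ume6∆ and 0.125 in ume6∆snf2∆, which was 1 read in ume6∆. The pair also differed in the genes that mark the mating types. All 7 a-cell genes were at least 2-fold higher in ume6∆, with a summed level of 27.4 scaled RPKM in snf2∆ and 1093 in ume6∆. All 5 alpha-cell genes were at least 2-fold lower, with sums of 3043 and 49.2. In WT the sums were 974 for a-cell and 52.3 for alpha-cell genes, and in ume6∆snf2∆ they were 81.5 and 7702. MFA1 and MFA2, which encode the a-factor pheromone, had 3 reads each in snf2∆, and HMRA1, identical in sequence to MATa1, had 0. The effects of the deletions and of a-cell or alpha-cell identity cannot be told apart in this pair of libraries. Of 12 kept genes of pheromone signalling that both haploid types use, 0 were higher and 2 lower in ume6∆, FUS1 (-1.24) and AGA1 (-1.11). Over all kept genes 6.97% were higher and 4.55% lower.

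Genes of chromosome IX stood apart from those of every other chromosome. The median difference over its 194 kept genes was 0.79, against medians from -0.18 to 0.03 on the other 15 chromosomes. Of the 194 genes 165 had a positive difference, 78 were at least 2-fold higher in ume6∆ (40.2%) and 2 were lower, whereas 3.04% to 9.20% of genes were higher on each of the other chromosomes. Relative to WT the median of chromosome IX was 0.92 in ume6∆, 1.02 in ume6∆snf2∆ and 0.07 in snf2∆. When the genes were taken in order along the chromosome in 10 groups of 19 or 20 genes, the median difference was positive in all 10, from 0.28 next to the left end to 1.15 near the middle. The number of copies of the chromosome was not measured, and its part in these differences was not tested. Many of the counts and medians that genes of chromosome IX move are given below with and without them. The others include them.

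**Figure D1:**
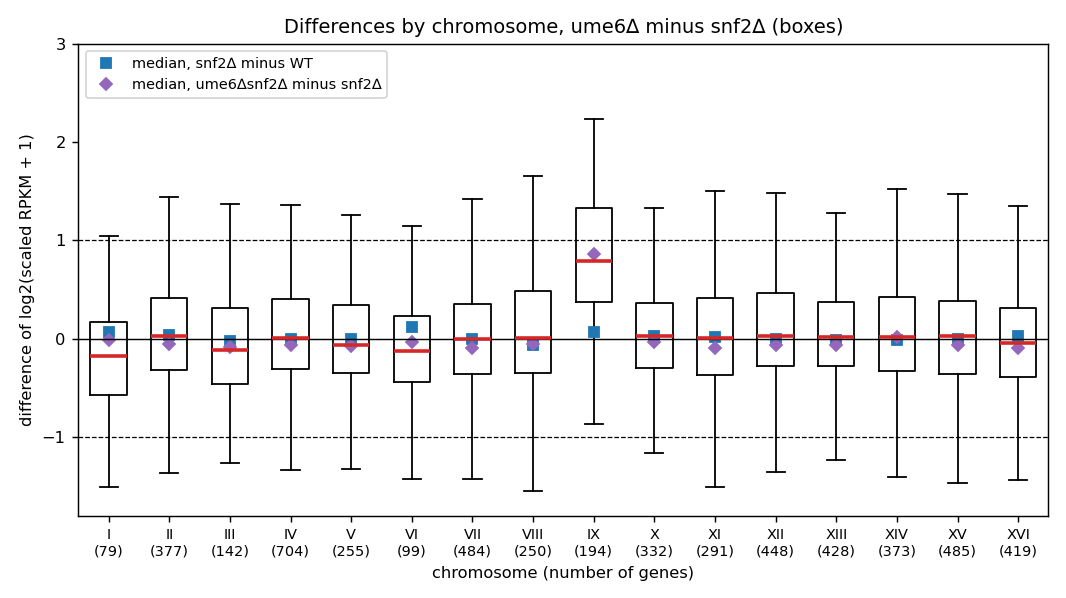
Differences of log2(scaled RPKM + 1), ume6∆ minus snf2∆, for the annotated genes kept on each chromosome. Boxes span the quartiles with the median in red and whiskers reach the last value within 1.5 box lengths; blue squares are medians of snf2∆ minus WT and purple diamonds medians of ume6∆snf2∆ minus snf2∆. Chromosome IX, with medians of 0.79 and 0.86 in the libraries without UME6, lies above the other 15.

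Over all 5840 kept genes 407 were at least 2-fold higher in ume6∆ than in snf2∆ (6.97%) and 266 lower (4.55%), 673 in all (11.5%). The median difference was 0.01 and the quartiles were -0.33 and 0.43. At 4-fold 90 genes were higher and 42 lower, and at 8-fold 41 and 6. Higher genes were 60.5% of the genes called. That split depended on the scaling: with RPKM as deposited it was 281 higher and 410 lower (40.7% higher, all-gene median -0.18), and with columns scaled to equal sums 226 and 571 (28.4%, median -0.31). Without the annotated genes of chromosome IX 329 were higher and 264 lower (55.5% higher). Just inside the filter on the mean lay ATO2 and GAL1 at 10.01 RPKM, and just outside it VBA5 (9.97) and MPC54 (9.98). NUS1 and RPI1 lay just inside the 2-fold limit and SSM4 and RPL39 just outside on the higher side, with differences between 0.998 and 1.002. On the lower side, with distances below 0, YHK8 (1.004) and PCT1 (1.008) lay just inside and COA6 (0.9997) and PRM15 (0.9999) just outside.

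**Figure D2:**
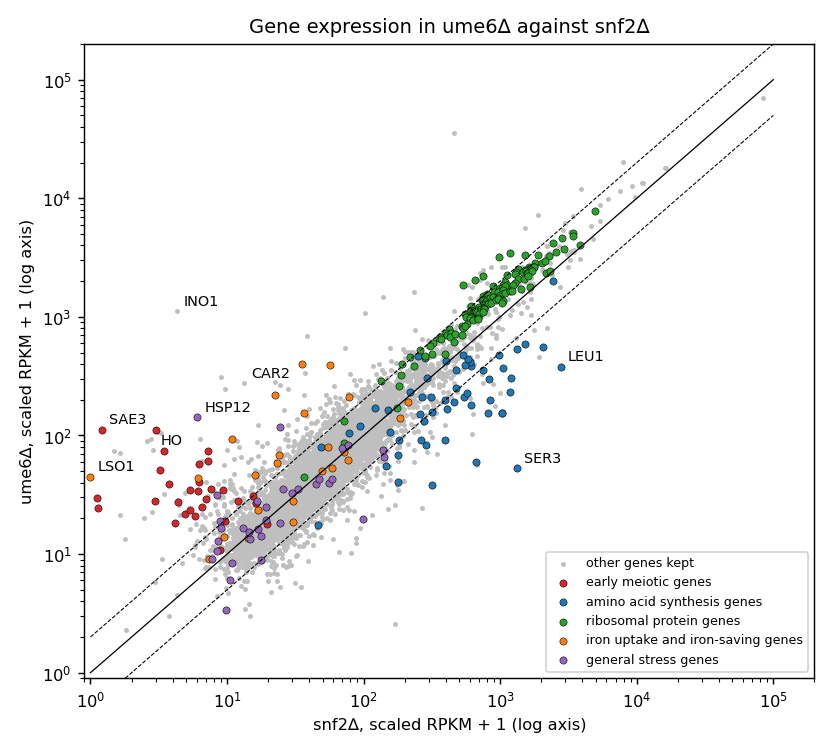
Level of each kept gene in ume6∆ (vertical) against snf2∆ (horizontal), as scaled RPKM + 1 on log axes, with 5 gene lists in colour. The solid line marks equal levels and dashed lines 2-fold; 24 of 29 early meiotic genes lie above the upper dashed line and 31 of 56 amino acid synthesis genes below the lower one.

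Early meiotic genes held many of the largest differences. Of the 33 genes listed 28 were at least 2-fold higher in ume6∆ and 0 lower, against a background of 6.97% higher. Only 29 of the 33 passed the filter on the mean, which a gene silent in WT and snf2∆ can pass through its level in the libraries without UME6 alone. Over those 29 the counts were 24 and 0 and the median difference 2.47, and without HOP1 and SPO22 of chromosome IX they were 22 and 0 of 27 with a median of 2.47. Against WT 23 of the 29 were higher in ume6∆ (background 8.92%) and 0 lower (background 7.62%), while in snf2∆ 0 were higher (background 3.56%) and 3 lower (background 5.86%). In bulk RNA, more cells that express such a gene and more RNA in each cell cannot be told apart.

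Ume6 sites were looked for in the promoters of the annotated genes, taken as the 250 bases before to 50 bases after the annotated gene start, on both strands. The URS1 core AGCCGCC lay in 2.17% of all 6002 promoters of nuclear protein-coding genes and in 2.19% of the 5288 kept. Among genes higher in ume6∆ it lay in 39 of 343 (11.4%), or 13.5% without chromosome IX, and among genes lower in ume6∆ in 2 of 238 (0.840%). Of the 24 early meiotic genes that were higher it lay in 16 (66.7%). The longer form AGCCGCCGA, which contains the core, lay in 37 of the 6002 promoters (0.617%), in 18 of the 343 higher genes (5.25%) and in 0 of the 238 lower ones. The windows below are those of the 8 genes with the largest higher difference among kept genes whose promoter holds the longer form. Each is 30 bases, read 5′ to 3′ on the strand of its gene from assembly R64 of RefSeq, with the motif or its reverse complement in capitals.
PHO92 (chrIV:1224606-1224635, minus strand): acgatgtaccTCGGCGGCTaatctttttgg
RNP1 (chrXII:47621-47650, minus strand): tacaacaaatAGCCGCCGAagttcctgtaa
HOP2 (chrVII:435484-435513, plus strand): gattatgtccTCGGCGGCTaaattttccat
SLZ1 (chrXIV:271288-271317, minus strand): caatatgaatAGCCGCCGAaattatgcccg
MEK1 (chrXV:996628-996657, minus strand): cggctaaattTCGGCGGCTatttcattcat
ZIP1 (chrIV:1032404-1032433, plus strand): taaaatacccTCGGCGGCTaaatttttaga
SPO13 (chrVIII:131941-131970, plus strand): attgagaaatAGCCGCCGAcaaaaaggaag
IRC15 (chrXVI:520294-520323, minus strand): atctgctgttTCGGCGGCTatttaacatgc
The motif lay on the same strand as the gene in RNP1, SLZ1 and SPO13 and on the opposite strand in the other 5. A match describes the letters in the window and is not a measured site.

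Of the 116 kept genes with the core in their promoter 39 were higher in ume6∆ than in snf2∆ (33.6%) and 2 lower, with a median difference of 0.59, so most promoters with the core belonged to genes within 2-fold. Without chromosome IX 36 of 112 were higher (32.1%) and 2 lower. The 2 lower genes were DPI8 (-2.83) and RIB5 (-1.54).

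The largest early meiotic difference was in SAE3 (YHR079C-A, chromosome VIII, 262192 to 262553), whose product loads the meiotic recombinase Dmc1 together with Mei5. SAE3 was at 0.471 in WT, 0.219 in snf2∆, 111 in ume6∆ and 89.7 in ume6∆snf2∆ scaled RPKM. Its 2 reads in snf2∆ against 1039 in ume6∆ gave a ratio of 507 (interval 140 to 4196). MEI5 also had 2 reads in snf2∆ and was at 0.815 in WT, 0.118 in snf2∆, 28.7 in ume6∆ and 49.6 in ume6∆snf2∆ (ratio 243, interval 66.8 to 2010.1). HED1, another early meiotic gene, was at 1.88 in WT, 2.03 in snf2∆, 111 in ume6∆ and 114 in ume6∆snf2∆, a difference of 5.21. The 3 genes were low in WT and snf2∆ and high in both libraries without UME6.

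Genes of the synaptonemal complex and chromosome axes divided the libraries in the same way. ECM11, of the central region of that complex, was at 0.0750 in WT, 0.131 in snf2∆, 23.5 in ume6∆ and 28.96 in ume6∆snf2∆, with 3 reads in snf2∆ (ratio 179, interval 61.1 to 873). ZIP1, its transverse filament, was at 6.91 in WT, 6.24 in snf2∆, 60.3 in ume6∆ and 50.8 in ume6∆snf2∆ (3.08). HOP1, an axis protein encoded on chromosome IX, was at 6.75 in WT, 6.21 in snf2∆, 72.6 in ume6∆ and 78.2 in ume6∆snf2∆ (3.35). RED1, the other axis protein listed, had the smallest of the called differences among early meiotic genes, at 11.4 in WT, 10.97 in snf2∆, 27.1 in ume6∆ and 38.99 in ume6∆snf2∆ (1.23).

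Several genes for making and repairing meiotic breaks were higher as well. REC104, needed for break formation, was at 9.63 in WT, 5.27 in snf2∆, 56.6 in ume6∆ and 50.3 in ume6∆snf2∆ (3.20). HOP2 and MND1, which act together in strand exchange, differed by 4.42 and 2.47. DMC1, the recombinase itself, was at 6.15 in WT, 8.30 in snf2∆, 33.7 in ume6∆ and 34.7 in ume6∆snf2∆ (1.90). The regulators IME2, a meiotic kinase, and SPO13, which acts on the first meiotic division, were both at 2.71. NDJ1, a meiotic telomere protein, was lower in snf2∆ than in WT, at 17.4 in WT, 2.21 in snf2∆, 49.9 in ume6∆ and 50.7 in ume6∆snf2∆ (3.99). The level of NDJ1 in ume6∆snf2∆ was close to that in ume6∆.

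The 4 listed genes below the filter on the mean were GMC2 (3.65), MSH4 (2.26), SPO11, the nuclease that makes the breaks (2.04), and REC8, the meiotic cohesin (1.82). The 5 kept genes within 2-fold were RIM4 (0.99), MER1 (0.97), CST9 (0.74), HFM1 (0.29) and REC107 (-0.13). REC107, of the break-forming machinery, was at 24.9 in WT, 18.6 in snf2∆, 16.99 in ume6∆ and 19.6 in ume6∆snf2∆ and so was at like levels in the 4 libraries. MER1, a meiotic splicing activator, was at 28.1 in WT, 8.62 in snf2∆, 17.8 in ume6∆ and 14.8 in ume6∆snf2∆ and was highest in WT. For 28 of the 29 kept genes ume6∆snf2∆ lay nearer to ume6∆ than to snf2∆ on the log2 scale. Among all 407 genes higher in ume6∆ that held for 217 (53.3%). The same count was not made over all kept genes, here or for the lists below.

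Middle and late sporulation genes, which act after the early genes, were mostly below the filter, with 8 of 32 kept. Of the 32 listed 2 were higher at any level and 0 lower, and of the 8 kept 0 and 0, with a median of -0.06. The higher ones were MPC54, of the spore membrane, at 2.69 in WT, 4.54 in snf2∆, 15.6 in ume6∆ and 17.5 in ume6∆snf2∆, and SPS2 at 3.61 in WT, 1.42 in snf2∆, 3.95 in ume6∆ and 1.42 in ume6∆snf2∆. The 13 genes of the Sin3-Rpd3 and Isw2 corepressors (median -0.15, or -0.19 without SDS3 of chromosome IX) and the 11 other genes of Swi/Snf (0.02, or -0.17 with RPKM as deposited and -0.30 with equal sums) held 0 higher and 0 lower.

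**Figure D3:**
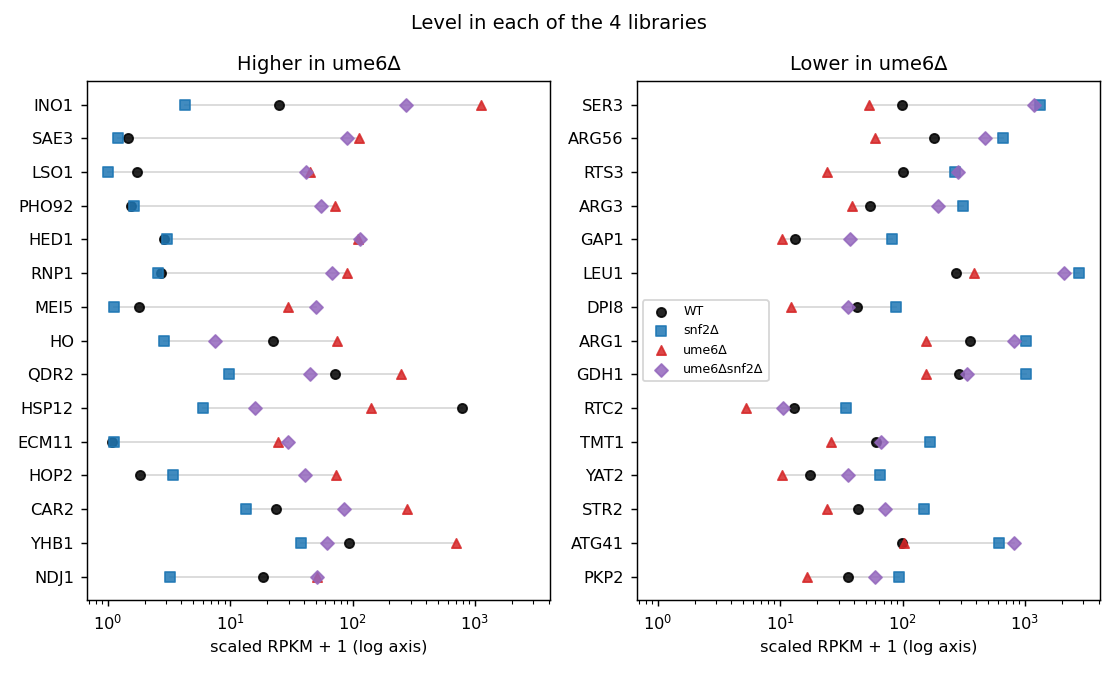
Scaled RPKM + 1 (log axis) in the 4 libraries for the 15 genes with the largest differences in each direction among genes with a standard name. On the left, SAE3, LSO1, PHO92, HED1, RNP1, MEI5 and ECM11 have WT beside snf2∆ and ume6∆snf2∆ beside ume6∆, while in HO and HSP12 ume6∆snf2∆ is nearer to snf2∆.

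The largest difference of all named genes was in INO1 (YJL153C, chromosome X, 134332 to 135933), the synthase that makes inositol phosphate from glucose 6-phosphate. INO1 was at 23.9 in WT, 3.26 in snf2∆, 1114 in ume6∆ and 272 in ume6∆snf2∆. Its ratio of ume6∆ to snf2∆ was 341 (interval 288 to 408). WT lay between the single deletions, and ume6∆snf2∆ lay above WT and below ume6∆. The letters of the URS1 core were not in the window searched for INO1.

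HO (YDL227C, chromosome IV, 46271 to 48031), the endonuclease that switches mating type and the classic gene known to need Swi/Snf, was at 21.5 in WT, 1.89 in snf2∆, 74.3 in ume6∆ and 6.54 in ume6∆snf2∆, and its ratio was 39.3 (interval 31.7 to 49.4). Here ume6∆snf2∆ was nearer to snf2∆. Of the 8 genes listed as reported to need Swi/Snf, 4 were higher in ume6∆ and 0 lower (median 1.07), against 6.97% and 4.55% of all kept genes. Besides INO1 and HO these were PHO84, the high-affinity phosphate transporter, at 605 in WT, 31.5 in snf2∆, 137 in ume6∆ and 42.8 in ume6∆snf2∆ (2.09), and PHO5, a secreted acid phosphatase, at 49.97 in WT, 17.5 in snf2∆, 40.8 in ume6∆ and 14.7 in ume6∆snf2∆ (1.17). PHO84 overlaps an antisense gene, and these libraries do not mark strand, so reads of the pair cannot be separated. ADH2 (0.97), PHO8 (-0.77), GAL1 (-0.15) and SUC2 (0.11) were within 2-fold, in medium in which glucose represses ADH2, GAL1 and SUC2. SUC2 is the only one of the 8 on chromosome IX, and without it the median was 1.17.

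Other large higher differences fell in genes of varied roles. PHO92, a reader of methylated messenger RNA, was at 0.555 in WT, 0.645 in snf2∆, 70.3 in ume6∆ and 53.8 in ume6∆snf2∆ (5.44), and RNP1, an RNA-binding protein, at 1.73 in WT, 1.58 in snf2∆, 89.1 in ume6∆ and 66.9 in ume6∆snf2∆ (5.12). CAR2, the transaminase of arginine breakdown, was at 22.9 in WT, 12.4 in snf2∆, 275 in ume6∆ and 84.2 in ume6∆snf2∆ (4.36). CAR1, the arginase of the step before it, was at 17.1 in WT, 277 in snf2∆, 310.2 in ume6∆ and 514 in ume6∆snf2∆ and so differed from WT in both deletions but by 0.16 between them. YHB1, a flavohaemoglobin that detoxifies nitric oxide, was at 92.5 in WT, 37.3 in snf2∆, 692 in ume6∆ and 60.9 in ume6∆snf2∆ (4.18). QDR2, a drug and potassium transporter encoded on chromosome IX, was at 70.5 in WT, 8.70 in snf2∆, 246 in ume6∆ and 44.3 in ume6∆snf2∆ (4.67). ULP2, a SUMO protease also encoded on chromosome IX, was at 37.4 in WT, 36.4 in snf2∆, 333 in ume6∆ and 222 in ume6∆snf2∆ (3.16). CAR1 and ULP2 were chosen after their values were seen.

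Amino acid synthesis genes held the most lower genes of the lists. Of 56 genes, all kept, 31 were lower in ume6∆ and 0 higher, against backgrounds of 4.55% and 6.97%, with a median of -1.06. Without the 4 genes of chromosome IX the counts were 29 and 0 of 52 and the median -1.06. Relative to WT 19 were higher in snf2∆ (background 3.56%) and 0 lower (5.86%), and 9 were lower in ume6∆ (7.62%) and 2 higher (8.92%). The level in ume6∆snf2∆ was nearer to snf2∆ for 34 and nearer to ume6∆ for 22. Among all 266 genes lower in ume6∆ it was nearer to snf2∆ for 168.

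SER3 (YER081W, chromosome V, 322686 to 324095) encodes the enzyme that opens serine synthesis and was at 97.7 in WT, 1322 in snf2∆, 52.00 in ume6∆ and 1177 in ume6∆snf2∆. Its ratio was 0.0393, within 0.0375 to 0.0412. SER3 overlaps SRG1, a noncoding RNA of the same strand whose transcription represses SER3, so its value may include SRG1 reads. LEU1, the isopropylmalate isomerase of leucine synthesis, was at 274 in WT, 2778 in snf2∆, 379.7 in ume6∆ and 2099 in ume6∆snf2∆ (-2.87). For SER3 and LEU1 the libraries without SNF2 were high, and WT and ume6∆ were low.

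Arginine synthesis gave 4 of the lower genes named here. ARG5,6 (ARG56 in the annotation, YER069W, chromosome V, 295410 to 298001), which encodes a pair of early enzymes of the pathway, was at 180.0 in WT, 663 in snf2∆, 58.4 in ume6∆ and 469 in ume6∆snf2∆ (-3.48). ARG3, the ornithine carbamoyltransferase, was at 53.5 in WT, 313 in snf2∆, 37.4 in ume6∆ and 195 in ume6∆snf2∆ (-3.03). ARG1, argininosuccinate synthetase, was at 353 in WT, 1026 in snf2∆, 153 in ume6∆ and 807 in ume6∆snf2∆ (-2.74), and ARG4, its lyase, at 320.2 in WT, 809 in snf2∆, 154 in ume6∆ and 818 in ume6∆snf2∆ (-2.38). In each of the 4 genes ume6∆ was the lowest library and WT lay below both libraries without SNF2. GDH1, the glutamate dehydrogenase that takes up ammonium, was at 286 in WT, 1026 in snf2∆, 154 in ume6∆ and 332 in ume6∆snf2∆ (-2.73), with ume6∆snf2∆ near WT. GCN4, which encodes the activator of these pathways, was itself at 1127 in WT, 1755 in snf2∆, 776 in ume6∆ and 1069.6 in ume6∆snf2∆ (-1.18), chosen after its values were seen.

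The Gcn4 core TGACTCA lay in 2.73% of all promoters and 2.86% of those kept, in 35 of 238 genes lower in ume6∆ (14.7%) and in 5 of 343 higher (1.46%). Of the 31 lower amino acid synthesis genes it lay in 15 (48.4%). The 6 windows below, from the genes with the largest lower differences among those with the core, were chosen after the values were seen. They are written as those of URS1, with the core in capitals.
ARG56 (chrV:295177-295206, plus strand): cttatccgaaTGACTCAgtctacatcaaaa
RTC2 (chrII:536343-536372, plus strand): cttgcagcaaTGACTCAaattccattggaa
TMT1 (chrV:540514-540543, minus strand): ttgatgttcaTGACTCAcagtaatatcctt
PKP2 (chrVII:392060-392089, plus strand): cactatgtttTGAGTCAtccaaactttcat
UGA3 (chrIV:156196-156225, plus strand): taccagggtcTGAGTCAtcaaagaaaaaga
ARG4 (chrVIII:141562-141591, minus strand): agtagatgaaTGACTCActttttggataag
PKP2 and UGA3 hold the reverse complement. Besides ARG56 and ARG4 these genes were outside amino acid synthesis as listed: TMT1, a methyltransferase that acts on trans-aconitate and isopropylmalate, was at 59.2 in WT, 168 in snf2∆, 24.98 in ume6∆ and 65.8 in ume6∆snf2∆ (-2.70), PKP2, a pyruvate dehydrogenase kinase, differed by -2.51, and UGA3, the activator of GABA breakdown, by -2.45.

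Among other motifs, GATAAG of the GATA factors lay in 14.5% of kept promoters, 23.5% of lower and 13.4% of higher genes. AGGGG of Msn2 and Msn4 lay in 21.5%, 30.3% and 19.8%, and CATGTG of Ino2 and Ino4 in 6.66%, 10.9% and 7.87%. In the same order the shares were 3.10%, 2.10% and 2.33% for CACGTG of Pho4 and Cbf1, 4.18%, 4.20% and 5.25% for GCACCC of Aft1, and 1.78%, 2.10% and 1.75% for GAGGCTG of Crz1. CACGTG and CATGTG share most of their letters, and over all annotated promoters the shares were 14.7% for GATAAG, 21.6% for AGGGG, 6.93% for CATGTG, 2.92% for CACGTG, 4.25% for GCACCC and 1.72% for GAGGCTG.

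The median of 25 sulfur amino acid genes was -0.50 (-0.49 without MET28 of chromosome IX). In ume6∆ 7 were lower and 2 higher, beside 4.55% and 6.97% of all kept genes. These counts were 9 and 0 with RPKM as deposited, 11 and 0 with equal sums, and 4 and 1 with a pseudocount of 5. Relative to WT 16 were higher in snf2∆ and 14 in ume6∆, against 3.56% and 8.92% of all kept genes, and 0 were lower in either. STR2, which links cysteine to homocysteine synthesis, was at 42.5 in WT, 149 in snf2∆, 23.1 in ume6∆ and 71.6 in ume6∆snf2∆ (-2.64), and MET13, a methylenetetrahydrofolate reductase, at 32.8 in WT, 292 in snf2∆, 70.9 in ume6∆ and 376 in ume6∆snf2∆ (-2.03). MET14, the kinase of sulfate activation, was at 131 in WT, 227 in snf2∆, 504 in ume6∆ and 180.1 in ume6∆snf2∆ (1.15), and was within 2-fold under either other scaling. Of 16 genes for purines and one-carbon units 1 was lower, ADE3 (-1.43), and 0 higher (median -0.05).

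Nitrogen catabolism genes, used when preferred nitrogen sources run out, held 17 kept of 22. Of the 17 kept 5 were lower and 1 higher, beside 4.55% and 6.97% of all kept genes. Their median was -0.40 (-0.61 without DAL1, DAL2 and DAL7 of chromosome IX). GAP1, the general amino acid permease, was at 12.2 in WT, 80.4 in snf2∆, 9.28 in ume6∆ and 36.02 in ume6∆snf2∆ (-2.98). DUR12, the urea amidolyase (-1.72), MEP3, an ammonium permease (-1.69), GAT1, an activator of these genes (-1.42), and MEP2, another ammonium permease (-1.40), were the other 4, and CAR2 was the higher one.

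**Figure D4:**
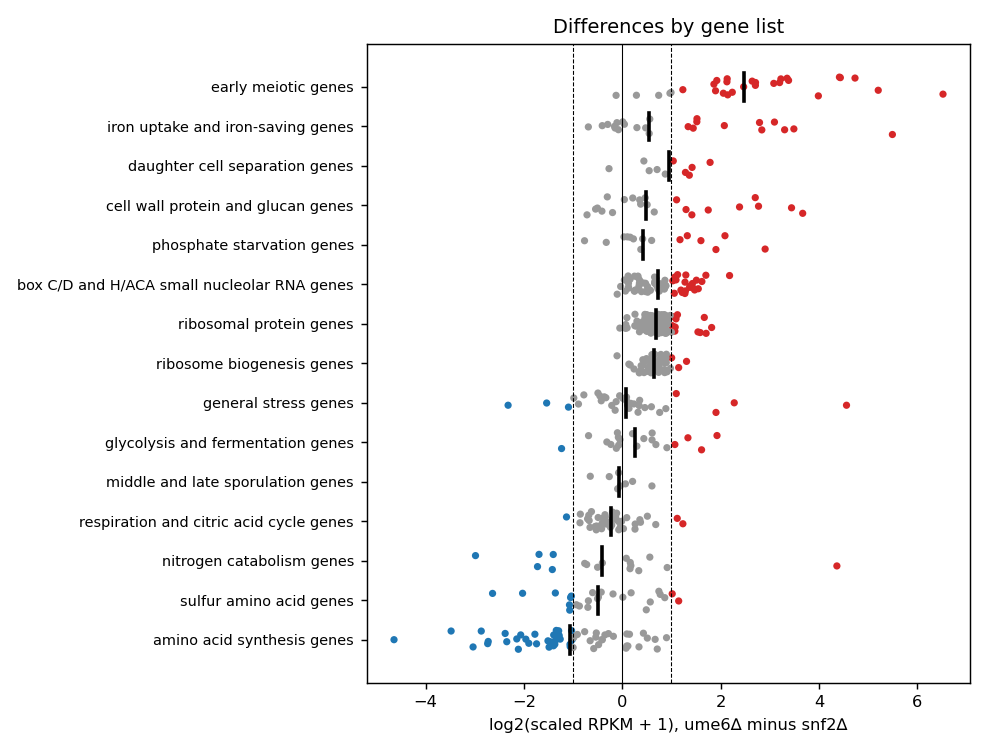
Differences of log2(scaled RPKM + 1), ume6∆ minus snf2∆, for each kept gene of 15 lists. Red and blue points are at least 2-fold higher and lower, dashed lines mark 2-fold and black bars the list medians, which run from 2.47 for early meiotic genes to -1.06 for amino acid synthesis genes.

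Iron uptake and iron-saving genes were higher in 11 of 24 cases kept and lower in 0, against 6.97% and 4.55% of all kept genes, with a median of 0.55, and none of them lay on chromosome IX. LSO1, a small protein made under iron limitation, had 0 reads in snf2∆ and 321 in ume6∆ and was at 0.725 in WT, 0 in snf2∆, 44.05 in ume6∆ and 40.8 in ume6∆snf2∆. Against a floor of 3 reads in snf2∆ LSO1 was at least 104.5-fold higher in ume6∆, the lower limit of the counting interval was 84.5, and the list median does not depend on its exact place. FIT3 and FIT2, cell wall proteins that retain iron, were at 60.5 in WT, 34.3 in snf2∆, 396 in ume6∆ and 176 in ume6∆snf2∆ (3.49) and at 6.94 in WT, 21.3 in snf2∆, 219 in ume6∆ and 34.3 in ume6∆snf2∆ (3.30). FET3, the ferroxidase of high-affinity uptake, was at 36.97 in WT, 55.5 in snf2∆, 390.0 in ume6∆ and 161 in ume6∆snf2∆ (2.79). SIT1, a siderophore transporter, was at 14.7 in WT, 9.93 in snf2∆, 92.4 in ume6∆ and 10.3 in ume6∆snf2∆ (3.09), with ume6∆snf2∆ beside snf2∆. Relative to WT 14 of the 24 were higher in ume6∆ and 3 in snf2∆, against 8.92% and 3.56% of all kept genes.

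Phosphate starvation genes were higher in 6 of 15 cases kept and lower in 0, against 6.97% and 4.55% of all kept genes (median 0.41). Of all 18 listed 8 were higher. Relative to WT 10 of the 15 were lower in snf2∆ and 4 in ume6∆, against 5.86% and 7.62% of all kept genes. The level in ume6∆snf2∆ was nearer to snf2∆ for 12. SPL2, which acts on the phosphate transporters, was at 37.4 in WT, 0.798 in snf2∆, 12.5 in ume6∆ and 3.50 in ume6∆snf2∆ (2.91). VTC3, of polyphosphate synthesis, was at 130.4 in WT, 35.8 in snf2∆, 91.1 in ume6∆ and 40.9 in ume6∆snf2∆ (1.32). PHO11 and PHO12, near-identical acid phosphatases, differed by 1.60 and 1.90, and their reads cannot be told apart with certainty.

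Many general stress genes were lower than in WT in each single deletion. In ume6∆ 4 of 33 kept genes exceeded snf2∆ at least 2-fold and 3 lay below it, and the median of 0.09 (0.05 without OM45 of chromosome IX) was -0.11 with RPKM as deposited and -0.24 with equal sums. The counts were 3 and 5 with RPKM as deposited and 3 and 6 with equal sums. Over all kept genes 6.97% were higher and 4.55% lower. Relative to WT 19 were lower in snf2∆ and 21 in ume6∆, against 5.86% and 7.62% of all kept genes. HSP12, a small membrane-protecting heat shock protein, was at 777 in WT, 5.04 in snf2∆, 142 in ume6∆ and 15.01 in ume6∆snf2∆ (4.56), YGP1, a secreted glycoprotein, at 499.7 in WT, 23.2 in snf2∆, 117 in ume6∆ and 18.4 in ume6∆snf2∆ (2.28), and HSP26, a small heat shock protein, at 280.4 in WT, 7.43 in snf2∆, 30.6 in ume6∆ and 14.9 in ume6∆snf2∆ (1.91). These genes were highest in WT and lowest in the libraries without SNF2. HSP78, a mitochondrial disaggregase, had the reverse order of the single deletions, at 44.5 in WT, 98.05 in snf2∆, 18.8 in ume6∆ and 27.3 in ume6∆snf2∆ (-2.32), as did CYC7, the cytochrome c of low oxygen (-1.54). Of 15 chaperone genes 4 were higher and 1 lower, which became 3 and 1 with RPKM as deposited and 1 and 2 with equal sums. The higher ones were HSP82 (1.40), SSA1 (1.30), HSP10 (1.26) and KAR2 (1.10). KAR2 lost the call under either other scaling, and SSA1 and HSP10 lost it with equal sums. SIS1, a cochaperone of Hsp70, was lower at 71.2 in WT, 234 in snf2∆, 59.3 in ume6∆ and 113 in ume6∆snf2∆ (-1.96).

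Genes of the ribosome were shifted together by less than 2-fold. Of 138 ribosomal protein genes 137 had a positive difference, with a median of 0.69 (0.49 with RPKM as deposited and 0.35 with equal sums), while 13 were at least 2-fold higher and 0 lower, beside 6.97% and 4.55% of all kept genes. Under either other scaling 5 were higher and 0 lower. All 5 members encoded on chromosome IX were among the 13, RPL34B (1.82), RPL40A (1.70), RPS24B (1.67), RPL16A (1.58) and RPL2B (1.54), and they were the 5 largest. RPL34B was at 446 in WT, 531 in snf2∆, 1873 in ume6∆ and 930.3 in ume6∆snf2∆. The 5 genes still higher under either other scaling were these same 5. Without them 8 of 133 were higher under the main scaling and the median was 0.68. Relative to WT 100 were higher in ume6∆ (95 of 133 without chromosome IX) and 4 in snf2∆, against 8.92% and 3.56% of all kept genes. The level in ume6∆snf2∆ was nearer to snf2∆ for 125, a count not made over all kept genes. Most of these proteins are encoded by a pair of near-identical genes between which reads may have been divided.

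Ribosome biogenesis factors showed a like shift, with 55 of 56 positive, a median of 0.64 (0.45 and 0.31 with the other scalings), 3 higher and 0 lower. Of the higher calls 1 was left with RPKM as deposited and 0 with equal sums, and 3 of 56 is a smaller share than the 6.97% of all kept genes. The 3 were SSF1 (1.31), BFR2 (1.15) and SOF1 (1.004). Of 62 kept genes for small nucleolar RNAs, which guide ribosomal RNA modification, 21 were higher (20 of 61 without SNR68 of chromosome IX) and 0 lower, and the median was 0.72. With RPKM as deposited 15 were higher and the median was 0.52, and with equal sums 10 and 0.39. SNR73 was at 126 in WT, 44.5 in snf2∆, 132 in ume6∆ and 52.6 in ume6∆snf2∆ (1.55) and SNR79 at 11.8 in WT, 7.54 in snf2∆, 37.8 in ume6∆ and 11.2 in ume6∆snf2∆ (2.18). Many of these RNAs are shorter than a usual library fragment and lie within introns or long precursors, so such levels are of reads assigned to them. The 41 spliceosome protein genes held 0 higher and 0 lower (median -0.02, or -0.03 without SNP1 of chromosome IX).

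Carbon metabolism held members on both sides. Glycolysis and fermentation had 4 higher and 1 lower of 20 kept genes, beside 6.97% and 4.55% of all kept genes. The median of 0.25 was -0.08 with equal sums. With RPKM as deposited 3 were higher and 1 lower, and ADH1 lost the call. GPM1, phosphoglycerate mutase, was at 4135 in WT, 1896 in snf2∆, 7212 in ume6∆ and 1609 in ume6∆snf2∆ (1.93), with ENO2 (1.61), TDH3 (1.34) and ADH1 (1.07) also higher and PYK2 (-1.23) lower. ALD6 and ACS1, which turn acetaldehyde into acetate and acetate into acetyl-CoA, were at 50.8 in WT, 72.3 in snf2∆, 551 in ume6∆ and 306 in ume6∆snf2∆ (2.91) and at 7.46 in WT, 9.02 in snf2∆, 73.9 in ume6∆ and 85.5 in ume6∆snf2∆ (2.90). The ACS1 promoter was among those with the URS1 core. CIT2, the peroxisomal citrate synthase, was at 244 in WT, 178 in snf2∆, 33.9 in ume6∆ and 37.2 in ume6∆snf2∆ (-2.36), the other way. In the list of alternative carbon genes that holds these 3, 4 of 14 kept were higher and 3 lower (median -0.09).

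Of 10 kept hexose transporter genes 2 were higher, HXT1 (1.80) and HXT3 (1.25), and 0 lower, and ume6∆snf2∆ was nearer to snf2∆ for all 10. The counts were 2 and 1 with RPKM as deposited and 1 and 2 with equal sums, under which HXT3 lost its call. HXT6 and HXT7 are near-identical and uncertain. Respiration and citric acid cycle genes had 2 higher and 1 lower of 47 kept, with a median of -0.23, both shares below those of all kept genes (6.97% and 4.55%). These were NDE1 (1.23), CYC1 (1.12) and SDH2 (-1.13). The balance turned with the scaling, to 1 and 3 with RPKM as deposited and 0 and 6 with equal sums.

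Several genes of the cell surface were higher in ume6∆. Of 22 kept genes for cell wall proteins and glucan 9 were higher and 0 lower (median 0.49). Without TIR3 of chromosome IX 8 of 21 were higher (median 0.47). Over all kept genes 6.97% were higher and 4.55% lower. PST1, a wall protein made on damage, was at 143 in WT, 21.3 in snf2∆, 283 in ume6∆ and 90.3 in ume6∆snf2∆ (3.67), SED1, the main wall protein of stationary cells, at 2219.7 in WT, 235 in snf2∆, 1606 in ume6∆ and 186 in ume6∆snf2∆ (2.77), and CWP1, a mannoprotein, at 9.56 in WT, 23.5 in snf2∆, 266 in ume6∆ and 7.67 in ume6∆snf2∆ (3.44). PST1 and SED1 were lower in snf2∆ than in WT, whereas CWP1 was high in ume6∆ alone. Of 10 genes that part daughter cells from mothers 5 were higher and 0 lower (median 0.96), with 3 higher under equal sums. Relative to WT 8 were lower in snf2∆, against 5.86% of all kept genes. EGT2, which degrades the septum, was at 272 in WT, 60.4 in snf2∆, 211 in ume6∆ and 88.8 in ume6∆snf2∆ (1.79), and DSE1, made in daughter cells, at 406 in WT, 81.9 in snf2∆, 221 in ume6∆ and 64.4 in ume6∆snf2∆ (1.42).

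Of 20 lipid genes 2 were higher (10%) and 1 lower (5%), beside 6.97% and 4.55% of all kept genes. Besides INO1, CHO2, the first methyltransferase of phosphatidylcholine synthesis, was at 208 in WT, 35.8 in snf2∆, 218 in ume6∆ and 15.8 in ume6∆snf2∆ (2.57), and PCT1 differed by -1.01, in a list of 20 genes with a median of 0.31 (-0.02 with equal sums). Of 23 ergosterol genes ERG3 (1.81) and ERG5 (1.72) were higher and ERG1 (-1.16) lower, with a median of -0.12. These shares, 8.70% and 4.35%, were close to those of all kept genes. Of 15 calcium and calcineurin genes RCN2 (-1.34) and CMK2 (-1.33) were lower (13.3%) and 0 higher (median -0.16). CMK2, a calmodulin-dependent kinase, was at 905 in WT, 78.9 in snf2∆, 30.8 in ume6∆ and 36.6 in ume6∆snf2∆, so both deletions lay far below WT. The 11 histone genes held 0 higher and 0 lower (median 0.37), and of the seripauperin genes, near-identical copies near chromosome ends, 3 of 24 passed the filter with 0 and 0. Of the strain marker genes HIS3 (-1.70) and LYS2 (-1.53) were lower. MET17 (levels of 0.894, 0.831, 1.30 and 2134 in the order WT, snf2∆, ume6∆, ume6∆snf2∆) and LYS2 (129.8, 308, 106 and 0.349) set the double deletion apart from the single deletions.

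The levels in WT and ume6∆snf2∆ are described without a test, since each library enters several of these differences. Of the 407 higher genes 202 (49.6%) were at least 2-fold above WT in ume6∆ and within 2-fold of WT in snf2∆, and 77 (18.9%) were below WT in snf2∆ and within 2-fold in ume6∆. In 91 (22.4%) neither deletion reached 2-fold against WT. Without chromosome IX these counts were 140, 72 and 82 of 329. Of the 266 lower genes 74 (27.8%) were below WT in ume6∆ alone, 66 (24.8%) above WT in snf2∆ alone and 101 (38.0%) neither. The double deletion was nearer to ume6∆ for 217 of the higher genes (53.3%), or 154 of 329 without chromosome IX, and for 98 of the lower ones (36.8%). Of the 202 genes above WT in ume6∆ it was nearer to ume6∆ for 130, or 78 of 140 without chromosome IX. Of the 77 below WT in snf2∆ it was nearer to snf2∆ for 53. The URS1 core lay in 15.8% of the 171 promoters of the first kind and 6.35% of the 63 of the second.

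Genes within 30 kb of a chromosome end made up 4.33% of 5360 kept and annotated genes, 6.03% of higher and 11.7% of lower genes. Several called genes carry systematic names only and are given without a role, chosen after their values were seen. All but YOL131W had no match in the annotation, so their overlap with other transcripts was not checked. The libraries do not mark strand, and such values may hold reads of an overlapping transcript. YKL177W was at 1.61 in WT, 169 in snf2∆, 1.60 in ume6∆ and 125 in ume6∆snf2∆, the lowest difference of all kept genes (-6.04); its systematic name is next to that of the alpha-cell gene STE3 (YKL178C). YLR041W, next in name to the alpha-cell gene AFB1 (YLR040C), was at 11.3 in WT, 86.6 in snf2∆, 12.7 in ume6∆ and 94.02 in ume6∆snf2∆ (-2.68). YLR154W-E was at 93.3 in WT, 461 in snf2∆, 35344 in ume6∆ and 1866 in ume6∆snf2∆ (6.26), YOL131W at 2.50 in WT, 0.485 in snf2∆, 73.6 in ume6∆ and 82.6 in ume6∆snf2∆ (5.65), and YLR437C-A, next in name to CAR2 (YLR438W), at 22.3 in WT, 7.99 in snf2∆, 311 in ume6∆ and 92.1 in ume6∆snf2∆ (5.12).

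Splicing efficiency was compared in the same 2 strains as the deposited fraction, for 289 entries. The reads behind each fraction are not known, so no interval is given. The efficiency was at least 0.1 higher in ume6∆ for 13 entries (4.5%) and at least 0.1 lower for 21 (7.27%), 34 in all (11.8%). Most entries differed little, with a median of -0.00599 and quartiles of -0.0278 and 0.000898, and 208 were negative and 75 positive. Introns of ribosomal protein genes, with medians of 0.874 in snf2∆ and 0.863 in ume6∆, had 0 of 104 beyond 0.1, with 87 negative.

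Introns of early meiotic genes made up 8 of the 13 higher entries, out of 9 kept. Among those not kept, GMC2, with a host below the filter on the mean, was at 0.641 in snf2∆ and 0.611 in ume6∆. HFM1 and REC114 had no number in snf2∆. DMC1 had an efficiency of 0.312 in WT, 0 in snf2∆, 0.685 in ume6∆ and 0.736 in ume6∆snf2∆. MEI4 was at 0 in WT and snf2∆, 0.389 in ume6∆ and 0.383 in ume6∆snf2∆, and SPO22 at 0, 0, 0.277 and 0.674 in the same order. SAE3 was at 0, 0, 0.577 and 0.672, though its host gene had 2 reads in snf2∆. HOP2 had no number in WT, 0 in snf2∆, 0.461 in ume6∆ and 0.431 in ume6∆snf2∆, and PCH2 was at 0, 0, 0.171 and 0.131. In these 6 the fraction in snf2∆ was 0 and both libraries without UME6 were above it. In 8 of the 13 higher entries the host had under 10 scaled RPKM in snf2∆, and in 8 the host itself was at least 2-fold higher in ume6∆.

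REC107 differed from those genes in that its host level was 18.6 in snf2∆ and 16.99 in ume6∆, while its efficiency was 0.0368 in WT, 0.05002 in snf2∆, 0.197 in ume6∆ and 0.429 in ume6∆snf2∆. Its intron and those of SPO22, AMA1 and HFM1 are known to need the meiotic splicing activator Mer1. AMA1 went the other way, at 0.592 in snf2∆ and 0.132 in ume6∆, with a host below the filter on the mean. HFM1 had no number in snf2∆. MER1 itself was at 8.62 in snf2∆ and 17.8 in ume6∆, and its difference of 0.97 lay just under the limit only with the added 1. REC102 was at 0.332 in WT and snf2∆, 0.434 in ume6∆ and 0.696 in ume6∆snf2∆. MND1 was the early meiotic entry that was lower, at 0, 0.310, 0.0955 and 0.0646, with a host level of 5.12 in snf2∆ and 32.9 in ume6∆. The first 20 bases of 6 of these introns are shown since their 5′ splice sites differ; the first 6 bases are in capitals and the coordinates are those of the whole intron in R64.
DMC1 (chrV:548553-548644, plus strand): GTATGTtataataacatttt
MND1 (chrVII:157200-157282, minus strand): GTATGTctaataaaaccatc
SAE3 (chrVIII:262355-262440, minus strand): GTATGTagctattttttcca
MEI4 (chrV:239624-239711, minus strand): GTACGTgaaattgtcacatc
SPO22 (chrIX:225810-225899, minus strand): GTATATaacaaaatgcaaaa
REC107 (chrX:469184-469263, minus strand): GTTCGTaccaacacagtgca
The hexamer GTATGT began 188 of 264 introns of annotated genes with 2 exons (71.2%), GTACGT 26 (9.85%), GTTCGT 2 (0.758%) and GTATAT 1 (0.379%).

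The other 5 higher entries were in SPO1, RRT8, DCN1, RAD14 and STO1. SPO1, a meiotic phospholipase homolog, was at 0 in WT and snf2∆, 0.570 in ume6∆ and 0.615 in ume6∆snf2∆, and its host gene was also higher (2.21). RRT8 was at 0.0772, 0.154, 0.360 and 0, with the double deletion at the other end from ume6∆. Relative to WT 12 of the 12 higher entries with all 4 values were at least 0.1 higher in ume6∆.

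Of the 21 lower entries 20 lay outside the ribosomal protein and early meiotic classes. AMA1, left out because its host was below the filter on the mean, differed by more than any of them (-0.46). It was at 0 in WT, 0.592 in snf2∆, 0.132 in ume6∆ and 0.0855 in ume6∆snf2∆. CGI121, of a complex that modifies transfer RNA, was at 0.375 in WT, 0.655 in snf2∆, 0.400 in ume6∆ and 0.460 in ume6∆snf2∆, a difference of -0.26. MTR2, a messenger RNA export factor, had 6 entries, of which the sixth was at 0.286, 0.291, 0.0616 and 0.0805. MPT5, an RNA-binding repressor of the Puf family, was at 0.128, 0.236, 0.0495 and 0.192, and PTC7, a phosphatase with an intron that can be kept in its message, at 0.163, 0.388, 0.223 and 0.241. COI1 (0.313, 0.459, 0.219 and 0.374), YBR062C (0.239, 0.609, 0.382 and 0.528) and IWR1 (0.338, 0.506, 0.303 and 0.333) completed the 8 largest with MND1. In 14 of the 21 snf2∆ was at least 0.1 above WT, and in 16 ume6∆ was within 0.1 of WT. Such counts against WT, for lower or higher entries, were not made over all 289 entries. Their hosts were at like levels, with medians of 37.0 scaled RPKM in snf2∆ and 32.9 in ume6∆, and 18 of the 21 hosts were within 2-fold. That was also common among entries that differed by less than 0.1, with 240 hosts within 2-fold, 14 higher and 1 lower.

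**Figure D5:**
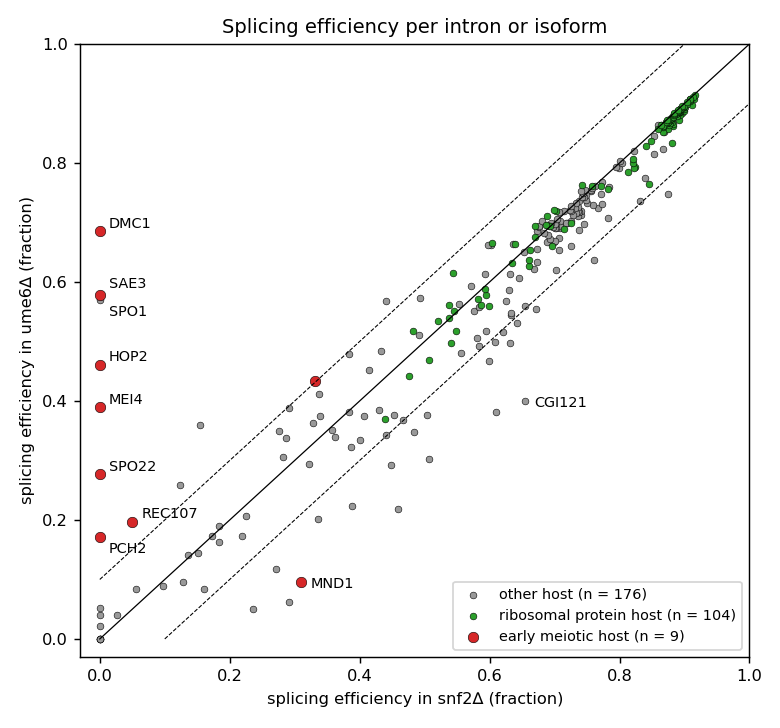
Splicing efficiency (fraction) of 289 introns or isoforms in ume6∆ (vertical) against snf2∆ (horizontal). The solid line marks equal values and dashed lines a difference of 0.1; 8 of 9 entries in early meiotic genes lie above the upper line, most of them at 0 in snf2∆, while the 104 entries in ribosomal protein genes lie between the lines.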

How the data were processed

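Expression was deposited by the authors as RPKM, 1 column per strain, and splicing efficiency as a fraction per intron or isoform, whose formula is not stated; the deposited snf2∆ splicing column was treated as the same fraction. The submitters' processing notes name sacCer3, CASAVA and STAR 2.4.0 without their roles. Which tool and annotation gave the counts is not given in the sources used here. Per the labels, the kit was TruSeq V2, which does not mark strand. Lines that name no gene (3, with 0.0811% to 0.221% of summed RPKM) were left out. Of 6659 genes 5986 matched the R64 annotation of RefSeq, the assembly behind sacCer3.

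RPKM times gene length gave whole reads for 99.0% to 99.4% of values (tolerance 0.05 reads), and intervals use those reads. The libraries had been scaled to 27.7, 25.7, 30.2 and 17.4 M reads for WT, snf2∆, ume6∆ and ume6∆snf2∆, and 3 reads are 0.0995 to 0.172 RPKM for a gene of 1 kb. Size factors were the median ratio to the geometric mean. A pseudocount of 1, a mean of 10 RPKM and 2-fold set the calls. For introns the limit was 0.1. Python 3.11.15, numpy 2.4.6, pandas 2.3.3 and SciPy 1.17.1 were used, and the steps were tested on simulated data.

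Members and gene lists were chosen with earlier results of these data known. Genes named are the 15 largest differences in each direction with a standard symbol, the leading members of each list, left-out genes, the 8 largest intron differences in each direction and every early meiotic intron; exceptions are marked in the text. The account of chromosome IX was added after the values were seen.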

Additional observations from a re-analysis of the deposited data

How the results depend on the processing

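The direction of the counts depended most on the scaling. With RPKM as deposited 410 genes were lower, and with equal sums 226 were higher and 571 lower; the scaling itself moves the all-gene median. A 3-fold limit left 150 higher and 80 lower. Counts stayed within 1.5 times of 407 and 266 with a pseudocount of 5 (340 and 190) or 0.1 (429 and 287), no filter on low values (486 and 328), overlapping genes left out (388 and 254), and, chosen after seeing the data, unannotated genes (365 and 239) or chromosome IX (329 and 264) left out. For introns a limit of 0.2 gave 7 higher and 6 lower, 0.05 gave 25 and 44, and hosts of at least 50 RPKM in both strains left 1 and 2.

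Of 94 named genes called, 5 lost the call with RPKM as deposited (PHO5, MET14, BFR2, SOF1, CYC1), 11 with equal sums, 4 with a pseudocount of 5 and 0 with 0.1, and none changed sign. Ribosomal protein genes had 5 higher under either other scaling, all on chromosome IX, and small nucleolar RNA genes 10 with equal sums. No paired analysis was possible because each strain has 1 library. With 1 library per strain, differences between strains and between cultures cannot be told apart.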
